A study of Mus musculus with 36 samples.

Results

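The genes described here are the enzymes and transporters of glycolysis together with genes that cells raise when oxygen is short, followed in mouse CD4 T cells that lack the transcriptional co-repressor TRIM28 and in littermate controls. A list of 38 genes was drawn up by function. Of these, 33 were read on the array by a probe set (a group of oligonucleotides summarised into 1 value) annotated with that gene alone, among 22180 such genes in all. All 33 were above the median of the whole table in at least 3 samples, as were 13082 genes, and these were tested. Gpi1 and Eno1 were not analysed here, and Aldoa, Bnip3l and Ankrd37 were left out because their probe sets carry further gene symbols.

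The 36 arrays fall into 12 groups of 3. Cells came from TRIM28KO mice (KO) or from wild-type littermates (WT), and for each genotype they were either stimulated for 72 h with antibodies to CD3 and CD28 or taken as naive CD4 T cells. The stimulated cells were kept in Th1, Th2, Th17 or Treg polarizing conditions or in the Th0 condition, and the cytokines used are not given in the labels. The promoter or Cre driver of the deletion, the animals' ages and whether replicates are different mice are not given in the labels used here. The p-values therefore measure the spread between these samples, which may be technical. In the naive groups this spread also spans both sexes. Xist, a transcript of female cells, was high in KO naive samples 1 and 2 and WT naive sample 1 and low in all other samples. All levels are log2 intensities, so a difference of 1 is a doubling, and a change was called where the limma fit over all tested genes gave an adjusted p under 0.05. Where groups are said not to overlap, this describes the samples of that gene only. The share of all genes without overlap was not counted in any comparison.

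Glycolysis splits glucose into pyruvate, which is either oxidised in mitochondria or reduced to lactate and exported. Resting T cells use little glucose, and after activation they take it up quickly and release lactate even when oxygen is present. The transcription factor HIF-1 raises most genes of this pathway in hypoxia and in activated T cells, where Th17 cells are known for high glycolysis and Treg cells for relying more on mitochondrial oxidation. HIF-1 binds a short DNA motif, ACGTG or GCGTG, in hypoxia response elements of its target genes.

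The promoters of 6 members that the results return to are printed to show windows with several matches of this motif and with none. The windows span 300 bases (250 before to 50 after the annotated start, RefSeq, build GRCm38.p6) and run 5′ to 3′ on the gene's strand. Capitals mark ACGTG or GCGTG or their reverse complements. The windows are Hk2 at chr6:82774405-82774704 (minus strand), Slc16a3 at chr11:120948817-120949116 (plus strand), Pgk1 at chrX:106186850-106187149 (plus strand), Vegfa at chr17:46032328-46032627 (minus strand), Ldha at chr7:46845554-46845853 (plus strand) and Tpi1 at chr6:124814109-124814408 (minus strand).
Hk2: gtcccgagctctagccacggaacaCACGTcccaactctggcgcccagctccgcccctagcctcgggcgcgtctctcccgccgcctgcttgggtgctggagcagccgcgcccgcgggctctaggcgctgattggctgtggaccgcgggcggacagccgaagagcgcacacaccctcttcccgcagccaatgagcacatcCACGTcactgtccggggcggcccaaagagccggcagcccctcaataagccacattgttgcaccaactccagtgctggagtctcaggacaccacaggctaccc
Slc16a3: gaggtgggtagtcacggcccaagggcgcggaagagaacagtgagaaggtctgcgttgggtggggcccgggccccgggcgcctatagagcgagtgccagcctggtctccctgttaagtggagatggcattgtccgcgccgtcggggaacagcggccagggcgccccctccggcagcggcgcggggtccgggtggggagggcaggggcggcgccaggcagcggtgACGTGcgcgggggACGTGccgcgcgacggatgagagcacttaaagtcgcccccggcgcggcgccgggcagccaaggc
Pgk1: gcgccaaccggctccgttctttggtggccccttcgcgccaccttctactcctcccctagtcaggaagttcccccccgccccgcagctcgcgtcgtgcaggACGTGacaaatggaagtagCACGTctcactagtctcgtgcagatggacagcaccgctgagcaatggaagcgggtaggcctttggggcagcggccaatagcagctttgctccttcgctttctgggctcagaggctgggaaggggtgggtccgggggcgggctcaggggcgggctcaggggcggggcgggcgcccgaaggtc
Vegfa: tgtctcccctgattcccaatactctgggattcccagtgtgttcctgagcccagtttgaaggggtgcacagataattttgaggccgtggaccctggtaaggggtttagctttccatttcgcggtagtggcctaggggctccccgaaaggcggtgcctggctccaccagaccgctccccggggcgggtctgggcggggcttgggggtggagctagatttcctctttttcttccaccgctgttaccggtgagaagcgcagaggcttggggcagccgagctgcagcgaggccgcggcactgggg
Ldha: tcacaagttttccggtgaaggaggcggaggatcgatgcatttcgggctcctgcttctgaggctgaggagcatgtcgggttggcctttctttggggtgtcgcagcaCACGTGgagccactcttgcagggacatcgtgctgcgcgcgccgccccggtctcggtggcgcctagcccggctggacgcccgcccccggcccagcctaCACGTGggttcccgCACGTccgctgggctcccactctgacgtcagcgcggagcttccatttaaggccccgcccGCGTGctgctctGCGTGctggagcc
Tpi1: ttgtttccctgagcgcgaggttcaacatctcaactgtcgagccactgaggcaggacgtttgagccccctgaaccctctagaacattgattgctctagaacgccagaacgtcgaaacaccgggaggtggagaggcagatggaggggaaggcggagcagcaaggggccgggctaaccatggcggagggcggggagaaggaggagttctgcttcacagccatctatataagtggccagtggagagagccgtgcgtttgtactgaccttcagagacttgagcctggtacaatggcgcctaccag
Searched on both strands, ACGTG occurred 2 times each in the windows of Hk2, Slc16a3 and Pgk1 and 5 times in that of Ldha, with a palindromic CACGTG counted once on each strand. GCGTG occurred 2 times in the window of Ldha and in none of the other windows printed. The windows of Tpi1 and Vegfa held neither motif. RefSeq gives Vegfa and Ldha a second start downstream of the one shown, whose window held ACGTG and GCGTG 1 time each for Vegfa, and GCGTG alone, 2 times, for Ldha. Over the 36 samples Tpi1 ranged from 8.52 to 12.20 log2 units and Ldha from 8.67 to 9.63. RefSeq windows were found for 30 of the 33 members, in 44 windows since some genes have several starts. ACGTG lay in 26 of these 44 windows (59.1%), against 19.6% of the 32851 windows of all genes, and GCGTG in 54.5%, against 32.4%. Members' windows were also richer in G and C, with a median of 62.7% against 52.7%, and what part base composition has in the motif counts was not tested. A match is a string of letters in this window and not a bound site.

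The targeted gene bore out the labels in all 36 samples. Trim28 read 5.51 to 6.58 in the 15 stimulated KO samples and 7.20 to 7.86 in the 3 naive KO samples, against 9.21 to 9.99 in the 18 WT samples. The CD4 T cell markers Cd3e, Cd3g, Cd4 and Cd28 were above the table median of 5.26 in every sample. The markers of B, myeloid and NK cells stayed below it throughout, apart from Cd79b in 23 samples and Itgam in 10. Of the CD8 T cell markers, Cd8a was above it in 7 samples and Cd8b1 in all 36. Within groups, replicates correlated at r = 0.98 to 0.992 across genes. Sample 1 of KO Th0 and sample 1 of KO Th1 stood apart in the proliferation marker Mki67, at 8.61 and 9.0, against 10.6 to 10.9 in the other KO samples of those conditions. In such bulk samples, fewer cells of a type and less RNA per cell cannot be told apart.

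**Figure D1:**
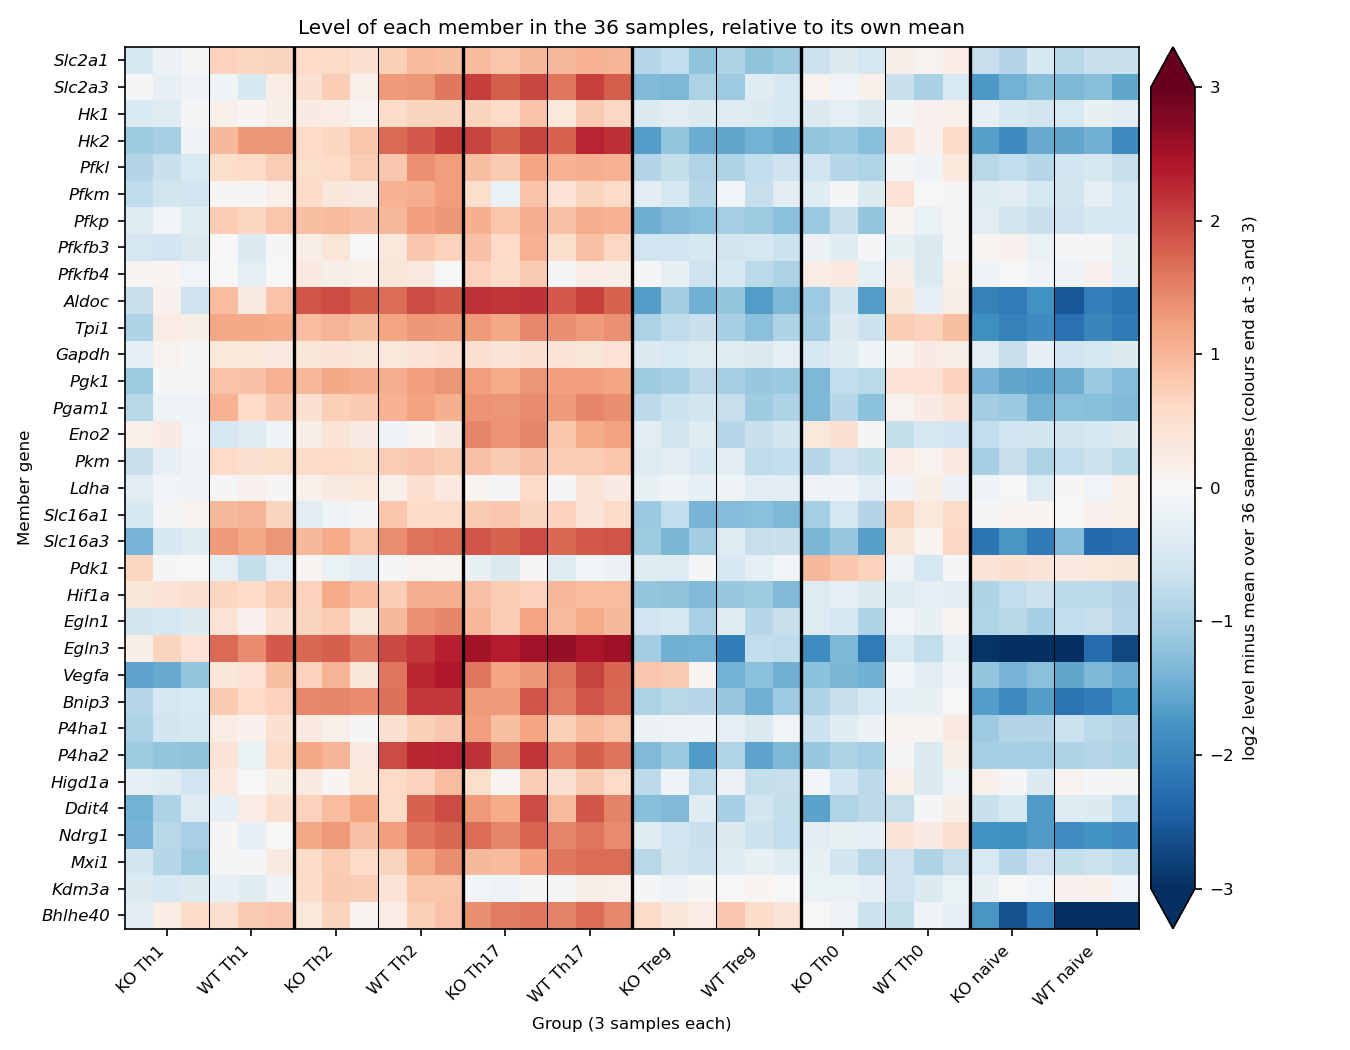
Heat map of the 33 members (rows, ordered by role) in all 36 samples (columns, 3 per group, KO left of WT within each condition). Colour is the difference in log2 intensity from the gene's own mean over the 36 samples. The Th17 and Th2 columns are highest for most members in both genotypes, naive and Treg columns are lowest, and the KO Th0 and KO Th1 columns are bluer than their WT neighbours for most members. Colours end at -3 and 3.

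The level of the members depended strongly on the culture condition. In KO cells, the mean was highest of the 5 stimulated conditions in Th17 for 28 members, and lowest in Treg for 20. In WT cells, Th2 held the highest mean for 17 members and Th17 for 15, and Treg the lowest for 28 of 33. Treg means lay below those of naive cells for 14 members in KO and for 15 in WT.

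The first comparison asks what stimulation in the Th0 condition does to the pathway. In WT cells, 24 of the 33 members were higher in Th0 than in naive cells and 2 were lower, against 31.2% and 22.3% of all tested genes. The median member differed by 0.69 (log2). Members at most measured steps of the pathway rose, with the triose phosphate isomerase Tpi1, an enzyme of the middle of glycolysis, at the top. Tpi1 read 11.49, 11.45 and 11.67 in WT Th0 and 8.52, 8.81 and 8.64 in WT naive cells, a 7.38-fold difference (log2 2.88 ± 0.18 SE, adjusted p = 3.5e-13). Bhlhe40, a transcription factor of effector T cells, read 9.48, 10.09 and 9.94 in WT Th0 and 7.06, 7.21 and 7.16 in WT naive cells (2.70 ± 0.22, adjusted p = 4.4e-11). Egln3, a prolyl hydroxylase that marks HIF-1 for breakdown and is itself a HIF target, read 9.16, 8.87 and 9.31 in WT Th0 and 5.49, 7.30 and 6.88 in WT naive cells (2.56 ± 0.30, adjusted p = 4.9e-08). For all 3 genes every Th0 sample exceeded every naive one, although the naive samples of Egln3 were spread from 5.49 to 7.30. Aldoc, an aldolase, read 9.22, 8.63 and 9.07 in WT Th0 and 6.33, 6.83 and 6.69 in WT naive cells. Slc16a3, which encodes the lactate exporter MCT4, read 9.0, 8.75 and 9.27 in WT Th0 and 7.35, 6.31 and 6.39 in WT naive cells. Ndrg1, a stress-responsive gene induced in hypoxia, read 10.02, 9.87 and 10.13 in WT Th0 and 7.76, 7.82 and 7.76 in WT naive cells. These groups did not overlap either, and the differences were 5.11-, 5.0- and 4.68-fold.

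The 2 members that fell on stimulation were Pdk1, by 0.55 ± 0.16, and Kdm3a, by 0.49 ± 0.11. Pdk1 encodes a kinase that limits the oxidation of pyruvate in mitochondria, and Kdm3a a histone demethylase. The 7 members with no call included Ldha, the lactate dehydrogenase subunit that makes lactate, at -0.07 ± 0.14. The call of Slc16a1 (0.42 ± 0.15), the lactate carrier MCT1, was lost without WT Th0 sample 1, WT Th0 sample 3 or WT naive sample 1 (adjusted p = 0.051 to 0.08). When the probe sets of a gene were averaged, the calls of Hif1a and Pdk1 were lost as well. After a further quantile normalization, 21 members were higher and 4 lower. The calls of Hk1, Pfkm and Slc2a3 were then lost (limma, adjusted p = 0.071 to 0.13).

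In KO cells the median response was smaller. Th0 exceeded naive cells in 14 members and was below them in 2, against 26.2% and 14.7% of all genes, with a median of 0.15. Hk2, the inducible hexokinase that performs the first step of glycolysis, was 1.40-fold higher in KO Th0 than in KO naive cells and 4.0-fold higher in WT Th0 than in WT naive cells. Tpi1 was 2.31-fold higher in KO and 7.38-fold higher in WT, Pgam1 (phosphoglycerate mutase) 1.03-fold in KO and 2.91-fold in WT, and Slc16a3 1.56-fold in KO and 5.0-fold in WT. Slc16a1 went opposite ways, with a fall of 1.80-fold in KO and a rise of 1.34-fold in WT. Slc2a3, the glucose transporter GLUT3, was 2.88-fold higher in KO and 1.62-fold higher in WT. With a term for sex, as given by Xist (10.81 and 10.84 in KO naive samples 1 and 2, 11.12 in WT naive sample 1 and at most 4.12 in all others), 9 members were higher and 2 lower in KO Th0, the calls of Aldoc and Egln3 being among those lost (adjusted p = 0.068 and 0.063). With that term, Slc16a3 differed by 1.03 (log2) between KO Th0 and KO naive cells, against 0.64 without it. A test of the difference between the KO effect in Th0 and that in naive cells called 20 members, 17 lower and 3 higher, against 10.4% and 8.06% of all genes. The largest differences were those of Slc16a3 (-1.68 ± 0.31, adjusted p = 0.00069), Tpi1 (-1.67 ± 0.26, adjusted p = 0.00013), Hk2 (-1.51 ± 0.26, adjusted p = 0.00047) and Pgam1 (-1.49 ± 0.21, adjusted p = 6e-05), with Pgam1 at -0.91 when its probe sets were averaged. Trim28 itself differed by -1.98 in naive KO cells and by -3.83 in KO Th0 (difference of -1.85, limma, adjusted p = 7.6e-06). The part of this unequal loss in the members' differences was not tested. Of the KO Th0 calls against naive cells, those of Hk2, Pdk1, Pgk1 and Slc16a3 were also lost without any of 2 to 5 single samples, among them KO Th0 sample 2 for each gene (adjusted p = 0.054 to 0.15).

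**Figure D2:**
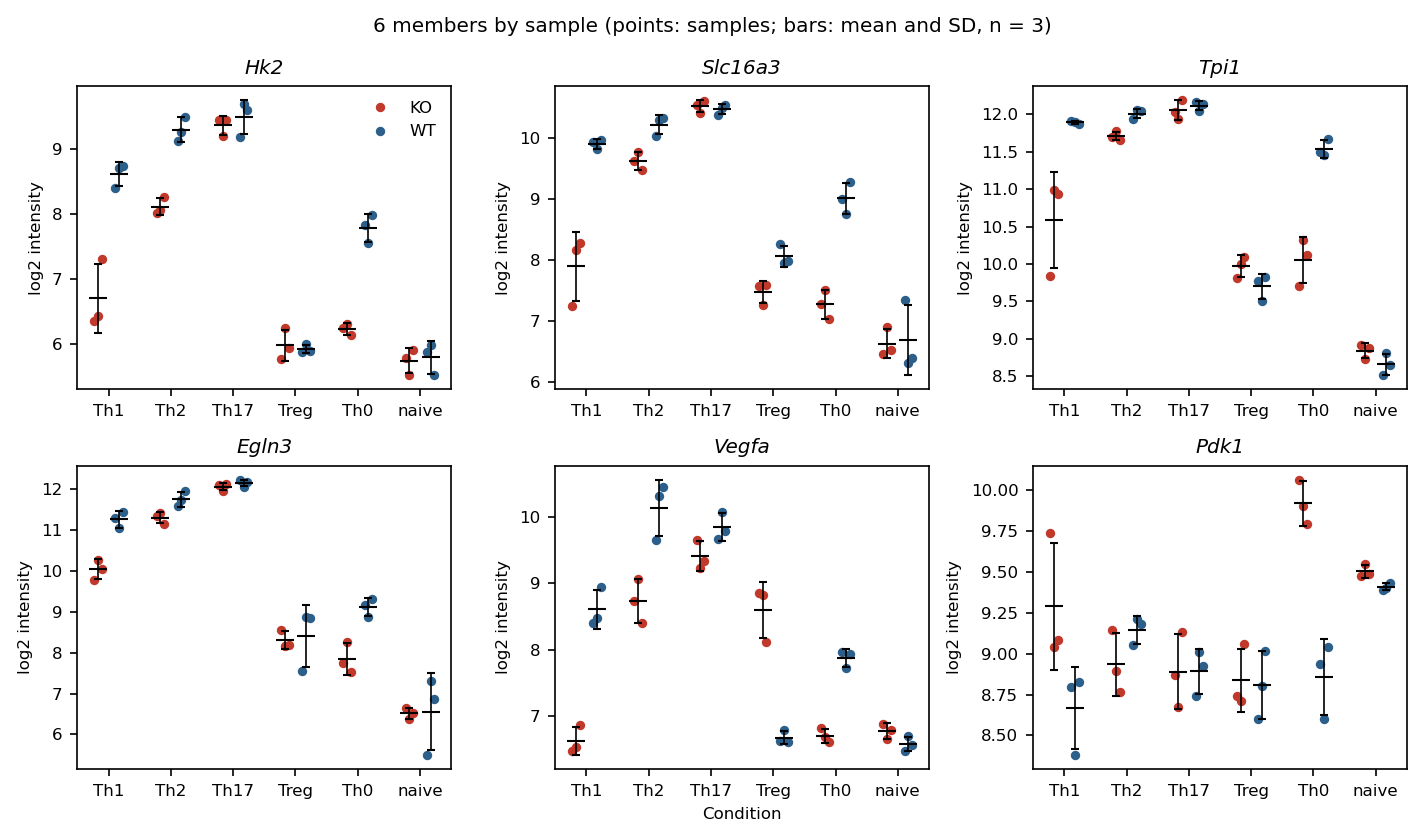
Log2 intensity of 6 members by condition, with 1 point per sample, KO in red at the left and WT in blue at the right of each pair, and bars for the mean and SD of 3 samples. KO points lie below WT points in Th0 and Th1 for Hk2, Slc16a3, Tpi1, Egln3 and Vegfa, above them for Pdk1, while Vegfa in Treg lies at 8.11 to 8.85 in KO and 6.61 to 6.78 in WT.

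Polarizing conditions were then set against Th0 within WT cells. In Th1, 13 members were higher and 1 was lower, against 5.43% and 5.4% of all genes, with a median of 0.37. Egln3 read 11.30, 11.04 and 11.44 in WT Th1 and 9.16, 8.87 and 9.31 in WT Th0 (4.42-fold, adjusted p = 8.4e-06). Hif1a, the oxygen-regulated subunit of HIF-1, read 11.59, 11.54 and 11.72 in WT Th1 and 10.55, 10.71 and 10.65 in WT Th0 (1.97-fold, adjusted p = 4.3e-08). Neither gene's groups overlapped, and the same held for Bhlhe40 (2.07-fold) and Slc16a3 (1.86-fold). Ndrg1 was the member that fell, by 0.45 ± 0.13. Its call and those of Pgam1 and Slc2a3 were lost without WT Th0 sample 1 and others, and that of Vegfa without WT Th0 sample 2 or WT Th1 sample 3 (adjusted p = 0.066 to 0.29 over these).

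In WT Th2, 29 members were higher than in Th0 and none was lower, against 17.2% and 22.9% of all genes, with a median of 0.97. At an unadjusted p under 0.05 (limma), none was lower either. Egln3 read 11.58, 11.73 and 11.94 in WT Th2, 6.22-fold above WT Th0. Vegfa, the angiogenic growth factor, read 9.65, 10.31 and 10.44 in WT Th2 and 7.97, 7.72 and 7.94 in WT Th0 (4.79-fold, adjusted p = 2.4e-10). Both groups of samples were well apart. P4ha2, a collagen prolyl hydroxylase, read 8.35, 8.64 and 8.67 in WT Th2 and 6.42, 5.96 and 6.58 in WT Th0 (4.71-fold). Bnip3, which directs mitochondria to autophagy in hypoxia, read 9.74, 10.21 and 10.21 in WT Th2 and 7.84, 7.86 and 8.07 in WT Th0 (4.37-fold). All 4 genes had every Th2 sample above every Th0 sample. The 4 members without a call were Slc16a1, Pfkfb4, Gapdh and Pdk1, and the calls of Ldha and Tpi1 were each lost without any of 4 of the 6 samples (adjusted p = 0.085 to 0.22).

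In WT Th17, 27 members were higher than in Th0 and none was lower, against 20.3% and 18.8% of all genes, with a median of 1.03. Again none was lower at an unadjusted p under 0.05 (limma). Egln3 read 12.22, 12.05 and 12.16 in WT Th17, 8.17-fold above WT Th0. Slc2a3 read 10.24, 10.67 and 10.44 in WT Th17 and 7.95, 7.65 and 8.17 in WT Th0 (5.75-fold, adjusted p = 6e-12). Mxi1, a partner of MAX that opposes MYC, read 10.21, 10.30 and 10.30 in WT Th17 and 8.01, 7.70 and 7.93 in WT Th0 (5.23-fold). Vegfa was 3.92-fold higher. Nothing overlapped between the groups for these genes, and no call in this comparison was lost on leaving out any 1 sample.

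In WT Treg, the direction turned. Relative to Th0, 22 members were lower and 3 were higher, against 22.4% and 19.2% of all genes, with a median of -0.73. Hk2 read 5.87, 6.0 and 5.89 in WT Treg and 7.83, 7.55 and 7.99 in WT Th0, a fall of 3.65-fold (adjusted p = 5.8e-09). Tpi1 fell 3.58-fold, Slc16a1 3.52-fold and Pgk1, the phosphoglycerate kinase that yields ATP, 3.03-fold. Slc16a1 read 7.90, 7.94 and 7.86 in WT Treg and 9.85, 9.52 and 9.76 in WT Th0, so that its Treg level was also below the 9.20 to 9.35 of WT naive cells. The members that rose were Bhlhe40, Kdm3a and Mxi1, of which Mxi1 lost its call without any of 4 samples. Among those that fell, P4ha1 lost its call without WT Th0 sample 3 or WT Treg sample 2, and Pfkm without WT Th0 sample 1 or WT Treg sample 2 (adjusted p = 0.051 to 0.16 over these 3 genes). All 7 tested genes of the proliferation list were also lower in WT Treg than in WT Th0 (median -2.34), and their part in the members' fall was not tested.

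Among the WT comparisons made here, which do not include Th17 against naive cells, the median was largest between Th17 and Treg cultures. Here 31 of 33 members were higher in Th17 and none was lower, against 28.5% and 25.6% of all genes, with a median of 1.97. Before adjustment, too, none was lower at a p under 0.05 (limma). Egln3 read 12.22, 12.05 and 12.16 in WT Th17 and 7.54, 8.87 and 8.84 in WT Treg (13.3-fold, adjusted p = 3.3e-11). Hk2 read 9.19, 9.70 and 9.60 in WT Th17 and 5.87, 6.0 and 5.89 in WT Treg (11.9-fold, adjusted p = 3e-15). Aldoc read 10.72, 10.93 and 10.66 in WT Th17 and 7.73, 7.21 and 7.54 in WT Treg (9.69-fold). Each Th17 sample lay far above each Treg sample for these genes. Vegfa (9.01-fold), Bnip3 (7.71-fold) and P4ha2 (7.58-fold) followed, although P4ha2 at 5.49, 4.81 and 5.03 in WT Treg lay around the table median of 5.26, so that the size of its fold is uncertain. The gene of the HIF-1 subunit itself, Hif1a, was 4.37-fold higher. Slc2a1, the main glucose transporter of activated T cells, was 4.22-fold higher on the probe set used, and less on its dimmer second probe set (log2 0.62 against 2.08). Pdk1 and Kdm3a differed by 0.08 each and were not called. All 7 tested proliferation genes were also higher in WT Th17 than in WT Treg (median 1.65), and their part in the members' difference was not tested. The call of Ldha (1.36-fold) was lost without WT Th17 sample 2 (adjusted p = 0.059).

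**Figure D3:**
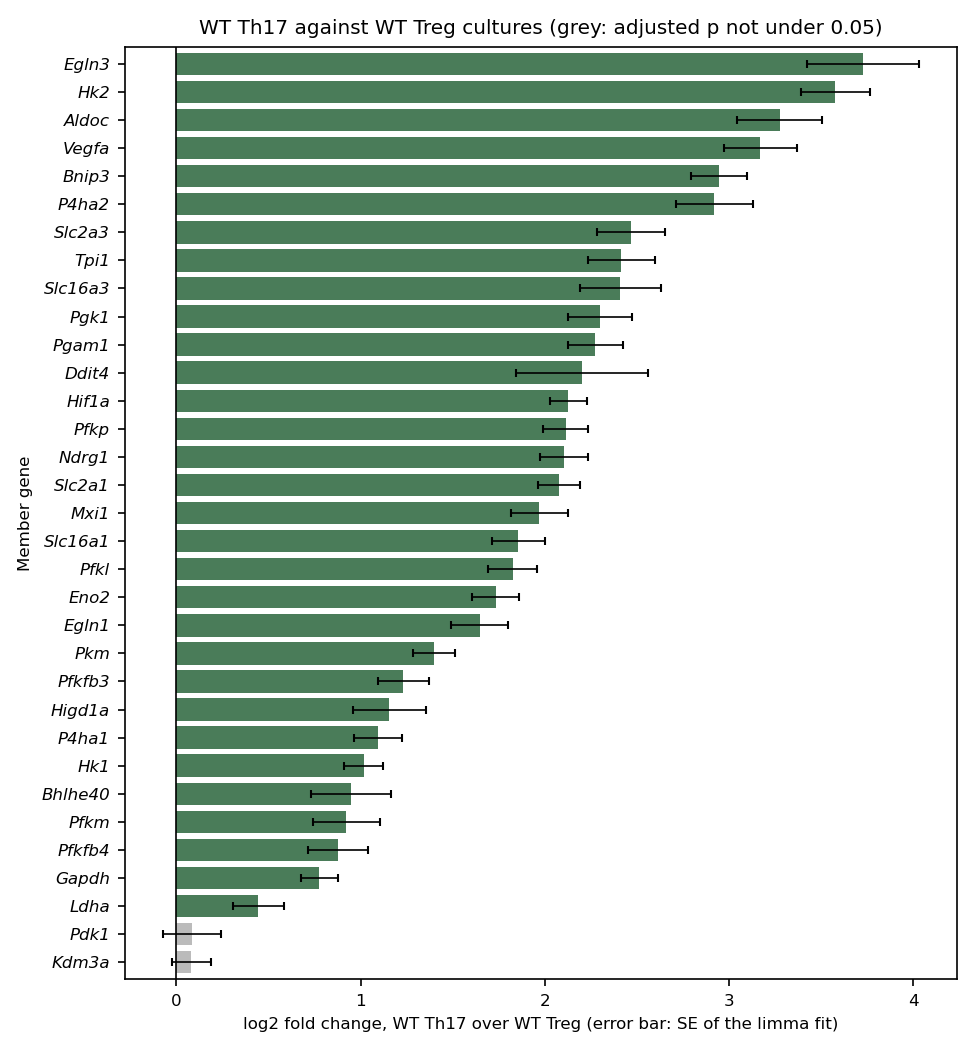
Log2 fold change of each of the 33 members in WT Th17 over WT Treg cultures (bars, 3 samples each), with the SE of the limma fit as error bars and grey bars for members not called. The 31 called members range from 0.45 for Ldha to 3.73 for Egln3, and Pdk1 and Kdm3a sit near 0.

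The main question of the design is what loss of TRIM28 does in each condition. In naive cells, the only member called was Bhlhe40, which was higher in KO, against 0.948% of all genes higher and 0.199% lower. It read 8.44, 7.59 and 8.09 in KO naive and 7.06, 7.21 and 7.16 in WT naive cells (0.90 ± 0.22, adjusted p = 0.03), without overlap. That call was lost when any of 5 of the 6 samples was left out (adjusted p = 0.078 to 0.28). The median member differed by -0.03, and no member was lower in KO even at an unadjusted p under 0.05. By Xist the naive groups were unbalanced for sex, and with a term for sex 1 member was higher in KO and 0 were lower.

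In Th0 cultures, 21 members were lower in KO and 3 were higher, against 19.6% and 16.8% of all genes, and the median member differed by -0.55. The members that fell included the glucose transporter Slc2a1, hexokinase, phosphofructokinase and pyruvate kinase genes, Tpi1, Pgk1 and Pgam1 between them, and both lactate carriers. Eno2, the only enolase among the members tested, rose, while Eno3, an enolase of a further list, was not called. The 6 members with the largest change were the following. Slc16a3 read 7.28, 7.51 and 7.02 in KO Th0 and 9.0, 8.75 and 9.27 in WT Th0 (3.33-fold lower, adjusted p = 1.1e-06). Hk2 read 6.24, 6.31 and 6.14 in KO Th0 and 7.83, 7.55 and 7.99 in WT Th0 (2.95-fold lower, adjusted p = 5.9e-07). Tpi1 read 9.71, 10.32 and 10.13 in KO Th0 and 11.49, 11.45 and 11.67 in WT Th0 (2.80-fold lower, adjusted p = 7.4e-07). For each, the highest KO sample was more than 1 log2 unit below the lowest WT sample. Pgk1 read 9.90, 10.51 and 10.43 in KO Th0 and 11.67, 11.68 and 11.93 in WT Th0 (2.79-fold lower). Pgam1 read 8.14, 8.62 and 8.25 in KO Th0 and 9.60, 9.73 and 9.87 in WT Th0 (2.63-fold lower), with a log2 difference of -1.40 here and of -0.62 on its dimmer second probe set. Slc16a1 read 8.21, 8.67 and 8.32 in KO Th0 and 9.85, 9.52 and 9.76 in WT Th0 (2.48-fold lower). The KO sample numbered 1, which had the low Mki67, was the lowest KO sample for Tpi1, Pgk1, Pgam1 and Slc16a1 but not for Slc16a3 or Hk2.

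Further along the pathway, the phosphofructokinase subunits Pfkp and Pfkl, which form the enzyme of its committed step, fell by 0.96 ± 0.12 and 0.85 ± 0.13 in KO Th0. Their partner Pfkm differed by -0.43 ± 0.18 and was not called. Pkm, the pyruvate kinase, fell by 0.94 ± 0.12 and Slc2a1 by 0.69 ± 0.12, the second probe set of Slc2a1 differing by -0.20. Gapdh fell by 0.49 ± 0.10, but its probe sets match near-identical pseudogene copies, so that value is uncertain. Among HIF targets outside glycolysis, Egln3 was 2.40-fold lower, Vegfa 2.26-fold and P4ha2 1.95-fold. Hif1a read 10.56, 10.70 and 10.51 in KO Th0 and 10.55, 10.71 and 10.65 in WT Th0, and its difference was -0.04 ± 0.10. Leaving out single samples lost the calls of Bnip3 (without KO Th0 sample 1, adjusted p = 0.052) and Egln1 (without KO Th0 sample 3, adjusted p = 0.078). The call of Ddit4 was lost without any of 4 samples (adjusted p = 0.054 to 0.23). Egln1 is the chief oxygen sensor among the HIF hydroxylases, and Ddit4 an inhibitor of mTORC1.

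The 3 members that rose in KO Th0 are shown because they run against the others, a choice made after their values were seen. Pdk1 read 10.06, 9.90 and 9.79 in KO Th0 and 8.94, 8.60 and 9.04 in WT Th0 (2.08-fold higher, adjusted p = 9.9e-06), and its dimmer second probe set differed by 0.40 (log2). The neuronal-type enolase Eno2 read 6.5, 6.65 and 6.13 in KO Th0 and 5.47, 5.68 and 5.61 in WT Th0 (1.79-fold higher, adjusted p = 1e-05). Slc2a3 read 8.73, 8.53 and 8.78 in KO Th0 and 7.95, 7.65 and 8.17 in WT Th0 (1.69-fold higher, adjusted p = 0.0019). None of the 3 overlapped between genotypes. Pdk1 averaged 9.92 ± 0.14 in KO Th0 and 9.5 ± 0.04 in KO naive cells, and 8.86 ± 0.23 in WT Th0 and 9.41 ± 0.02 in WT naive cells (SD, n = 3 each). The comparison of genotypes in Th0 and that of WT Th0 with naive cells share the WT Th0 samples, so their values are set side by side only.

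In Th1 cultures, 27 members were lower in KO and 2 were higher, against 23.7% and 17% of all genes, with a median of -0.89. Slc16a3 read 7.25, 8.15 and 8.27 in KO Th1 and 9.93, 9.81 and 9.96 in WT Th1 (4.03-fold lower, adjusted p = 1.2e-07). Vegfa read 6.47, 6.53 and 6.87 in KO Th1 and 8.39, 8.48 and 8.94 in WT Th1 (3.95-fold lower, adjusted p = 2.7e-08). Hk2 read 6.35, 6.43 and 7.31 in KO Th1 and 8.40, 8.72 and 8.74 in WT Th1 (3.79-fold lower, adjusted p = 2.1e-08). The KO Th1 values of Vegfa were close to those of naive cells, which read 6.65 to 6.88 in KO and 6.48 to 6.70 in WT, and no gene of the 3 overlapped between genotypes. P4ha2 read 5.31, 5.20 and 5.19 in KO Th1 and 6.78, 6.19 and 6.95 in WT Th1 (2.65-fold lower), with the KO samples at the table median. Tpi1 read 9.84, 10.98 and 10.93 in KO Th1 and 11.92, 11.89 and 11.87 in WT Th1 (2.48-fold lower). Pgk1 read 10.17, 11.21 and 11.20 in KO Th1 and 12.10, 12.12 and 12.28 in WT Th1 (2.47-fold lower). KO Th1 sample 1 was about 1 log2 unit under the other 2 KO samples for Tpi1 and Pgk1, and all 3 stayed below every WT sample. Bnip3 and Pfkl were 2.47- and 2.42-fold lower. Pdk1 (0.62 ± 0.16) and Eno2 (0.44 ± 0.13) were again higher, and Slc2a3 differed by -0.01 ± 0.19. Hif1a was lower by a small margin (-0.25 ± 0.10). The calls of Hif1a, Bhlhe40, Ddit4, Higd1a, a mitochondrial protein of the hypoxia response, and Pfkfb3, which makes the activator of phosphofructokinase, were each lost without any of 3 or 4 single samples (adjusted p = 0.052 to 0.34). Those of Gapdh and Pdk1 were lost without KO Th1 sample 1 (adjusted p = 0.081 and 0.05), where Pdk1 differed by 0.40, and that of Pdk1 also when its probe sets were averaged (0.32, adjusted p = 0.097).

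Proliferation genes moved alongside the members in these conditions. The 7 tested genes of the list (Mki67, Top2a, Bub1, Birc5, Kif11, Aurkb and Cdk1) were all lower in KO Th0 (median -2.08) and in KO Th1 (median -1.66). Their mean level was 7.08, 9.48 and 9.01 in the KO Th0 samples, against 10.6 to 10.7 in WT Th0, and 7.55, 9.83 and 9.52 in KO Th1, against 10.6 in WT Th1. With sample 1 of both of these KO groups left out, 20 members were still lower and 3 higher in KO Th0. In KO Th1, 22 were lower and 2 higher. Calls among all genes, both directions together, then numbered 3777 in Th0 and 3881 in Th1. With every sample kept they numbered 4765 and 5328. In Th2 and Th17, none of the 7 proliferation genes was called (limma, medians of -0.81 and -0.68). Their mean level was 9.18 to 9.48 in KO Th2 and 9.90 to 10.3 in WT Th2. In Th17 it was 9.13 to 9.46 in KO and 9.81 to 10.1 in WT, so neither condition overlapped. The fit shares its spread over all 36 samples, with sample 1 of KO Th0 and of KO Th1 among them. All 7 were higher in Th0 than in naive cells, by a median of 3.60 in KO and 5.36 in WT. Their part in the members' differences was not tested.

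**Figure D4:**
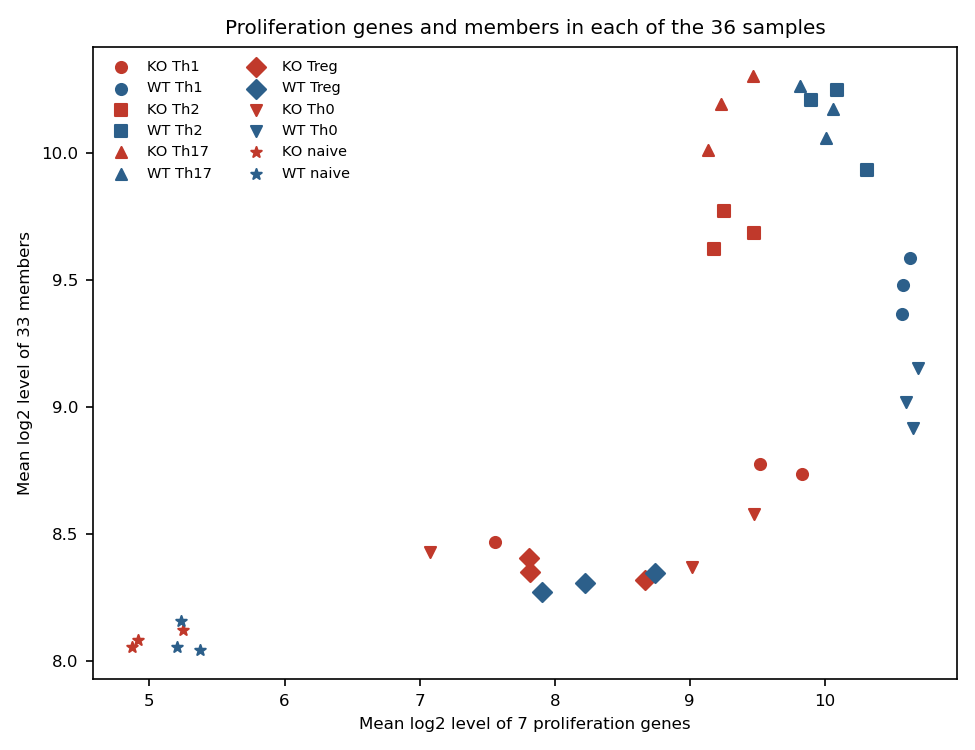
Mean log2 intensity of the 33 members (vertical axis) against that of the 7 proliferation genes (horizontal axis), 1 point per sample, in red for KO and blue for WT, with a symbol for each condition. KO Th0 samples lie at member means of 8.37 to 8.58 and WT Th0 samples at 8.92 to 9.15, while KO and WT Th17 samples share the range of about 10.0 to 10.3 at the top.

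In Th2 cultures, 14 members were lower in KO and none was higher, against 8.88% and 7.51% of all genes, with a median of -0.43. At an unadjusted p under 0.05 (limma), 19 members were lower and 0 higher, and the share of all genes at that threshold was not counted. Vegfa read 8.73, 9.06 and 8.40 in KO Th2 and 9.65, 10.31 and 10.44 in WT Th2 (2.65-fold lower, adjusted p = 7.1e-06). P4ha2 read 7.54, 7.39 and 6.68 in KO Th2 and 8.35, 8.64 and 8.67 in WT Th2 (2.54-fold lower, adjusted p = 3.6e-05). Hk2 read 8.02, 8.06 and 8.26 in KO Th2 and 9.12, 9.27 and 9.5 in WT Th2 (2.28-fold lower, adjusted p = 3.7e-05). No KO sample reached a WT sample for any of these. Slc2a3 read 9.08, 9.37 and 8.79 in KO Th2 and 9.91, 9.96 and 10.21 in WT Th2 (1.93-fold lower), the opposite of its direction in Th0. Slc16a1 read 8.89, 9.07 and 9.16 in KO Th2 and 10.04, 9.76 and 9.78 in WT Th2 (1.77-fold lower). Pfkm read 8.16, 7.91 and 7.86 in KO Th2 and 8.63, 8.67 and 8.83 in WT Th2 (1.66-fold lower). Of the middle and lower steps of glycolysis, Pgam1 fell by 0.45 ± 0.15 (adjusted p = 0.037). Tpi1 at -0.30 ± 0.18, Pgk1 at -0.15 ± 0.18, Pkm at -0.21 ± 0.12 and Aldoc at 0.05 ± 0.23 were not called. The WT Th2 sample numbered 1 was the lowest of its group for 30 of 33 members, against 34.8% of all genes. Without WT Th2 sample 2 the count of calls fell to 9, and the calls of Bnip3, Ndrg1, Pfkfb3, Pfkl and Pgam1 were each lost without 1 or more single samples (adjusted p = 0.057 to 0.19).

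In Th17 cultures, the genotypes differed in 2 members, 1 higher and 1 lower, against 4.03% and 4.18% of all genes, and the median member differed by -0.0003. Pfkfb4, an isoform of the enzyme that sets the activator of phosphofructokinase, read 6.95, 6.83 and 7.05 in KO Th17 and 6.21, 6.49 and 6.44 in WT Th17 (1.48-fold higher, adjusted p = 0.029). Mxi1 read 9.60, 9.57 and 9.84 in KO Th17 and 10.21, 10.30 and 10.30 in WT Th17 (1.51-fold lower, adjusted p = 0.013). Both were without overlap, and both calls were lost without 3 or 4 of the single samples (adjusted p = 0.054 to 0.16). Slc16a3 read 10.54, 10.40 and 10.61 in KO Th17 and 10.38, 10.49 and 10.54 in WT Th17, and Hk2 read 9.46, 9.20 and 9.45 in KO Th17 and 9.19, 9.70 and 9.60 in WT Th17. These groups overlapped (differences of 0.05 ± 0.22 and -0.13 ± 0.19).

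In Treg cultures, the only called member was Vegfa, which was higher in KO, against 1.71% of all genes higher and 2.51% lower. At an unadjusted p under 0.05 (limma), 4 members were higher and 3 lower, but the share of all genes at that threshold was not counted. Vegfa read 8.85, 8.83 and 8.11 in KO Treg and 6.62, 6.78 and 6.61 in WT Treg (3.80-fold higher, adjusted p = 6.3e-08). Every KO sample was more than 1 log2 unit above every WT sample, and the call held on leaving out any 1 sample. Vegfa was thus lower in KO in Th0, Th1 and Th2 and higher in Treg, with -0.43 ± 0.20 and no call in Th17. Of the members without a call, Slc16a3 read 7.57, 7.26 and 7.59 in KO Treg and 8.25, 7.94 and 7.98 in WT Treg (-0.58 ± 0.22, adjusted p = 0.15), and Bnip3 read 7.17, 7.26 and 7.22 in KO Treg and 6.94, 6.63 and 6.99 in WT Treg (0.36 ± 0.15, adjusted p = 0.22). Neither gene's groups overlapped, but the share of all genes whose groups do not overlap was not counted. Slc2a3 was at -0.56 ± 0.19 (adjusted p = 0.088), and Egln3 (-0.11 ± 0.30) and P4ha2 (-0.11 ± 0.21) overlapped between genotypes.

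**Figure D5:**
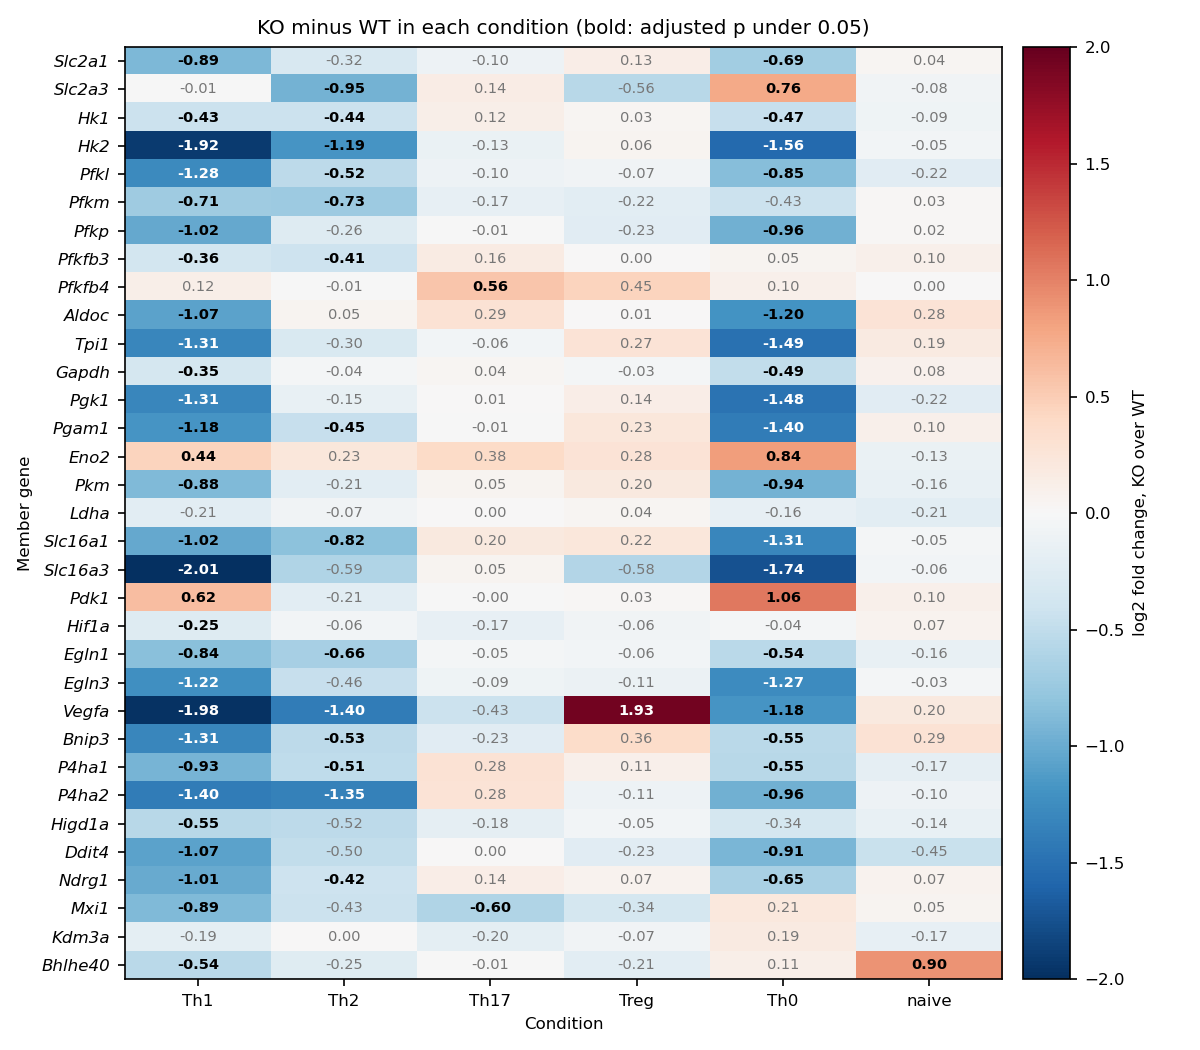
KO minus WT difference in log2 intensity for each of the 33 members (rows) in each condition (columns), printed in each cell, in bold at an adjusted p under 0.05. Th0 and Th1 columns hold 21 and 27 members called lower, Th2 holds 14, Th17 holds 1 lower and 1 higher, Treg holds Vegfa alone as higher, and naive holds Bhlhe40 alone as higher.

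In each of Th0, Th1 and Th2, 11 members were lower in KO: the hexokinases Hk1 and Hk2, Pfkl, Pgam1, Slc16a1, Bnip3, Egln1, Ndrg1, P4ha1, P4ha2 and Vegfa. Of all tested genes, 4.43% met the same condition. Of the 11, Bnip3, Egln1, Ndrg1, Pfkl and Pgam1 each had a call in Th0 or Th2 that was lost without single samples. No member was lower in 4 or more conditions. This was rare among all tested genes too, with 121 lower in 4 conditions, 17 in 5 and 4 in 6. The absence of members there therefore does not set them apart. The KO effect was compared between conditions directly, with Th0 as the shared partner of all 4 differences. The effect in Th1 differed from that in Th0 for 1 member, Mxi1 (-1.10 ± 0.22, adjusted p = 0.01), against 0.451% of all genes lower and 0.138% higher, and not without WT Th1 sample 3 (adjusted p = 0.054). In Th2 it differed for 11 members, 8 with a higher value than in Th0 and 3 with a lower one, against 4.97% and 5.22% of all genes. Slc2a3 (-1.71 ± 0.26) and Pdk1 (-1.27 ± 0.22) had the lower values, and Pgk1 (1.32 ± 0.25) and Aldoc (1.25 ± 0.32) the higher ones. In Th17, 18 members differed, 16 higher and 2 lower, against 7.41% and 8.22% of all genes, with Slc16a3 (1.79 ± 0.31), Slc16a1 (1.51 ± 0.21), Pgk1 (1.49 ± 0.25) and Aldoc (1.49 ± 0.32) in front. In Treg, 22 differed, 19 higher and 3 lower, against 13.1% and 13.9% of all genes, with Vegfa (3.1 ± 0.28), Tpi1 (1.76 ± 0.26), Pgam1 (1.63 ± 0.21) and Hk2 (1.62 ± 0.26) in front. With probe sets averaged, Pgam1 differed by 0.98 in Treg and Pdk1 by -0.82 in Th2. The loss of Trim28 itself was smaller in Treg than in Th0 (-3.08 and -3.83, difference of 0.75, limma, adjusted p = 0.014). For Th1, Th2 and Th17 against Th0 this difference was not called. The part of the unequal loss in the members' differences was not tested.

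Genes around the pathway were read from further lists, and their counts in KO Th0 stand against 19.6% of all genes lower and 16.8% higher. Of 16 tested other hypoxia-induced genes, 10 were lower and 1 was higher in KO Th0, 13 were lower in KO Th1, 7 in KO Th2, 2 in KO Th17 and 3 in KO Treg, against 19.6%, 23.7%, 8.88%, 4.18% and 2.51% of all genes lower in these conditions. The mitochondrial adenylate kinase Ak4 differed by -2.47 ± 0.35 in KO Th0, the carbonic anhydrase Car12 by -2.17 ± 0.59, the annexin Anxa2 by -1.94 ± 0.41 and the secreted glycoprotein Stc2 by -1.92 ± 0.18. Of 6 tested genes of the pentose phosphate pathway, which branches from glycolysis, 4 were lower and 1 was higher in KO Th0, with Pgd at -0.66 ± 0.13 and H6pd at 0.80 ± 0.10. Of 10 genes for the entry of pyruvate into mitochondria and its oxidation there, 4 were lower and 1 was higher. Among them, 2 kinases of the same family as Pdk1 moved in opposite directions, Pdk2 by 0.70 ± 0.14 and Pdk3 by -0.85 ± 0.16. Of 11 other glycolysis enzymes and isoforms, none was lower and 2 were higher, Adpgk by 0.62 ± 0.13 and Pfkfb2 by 0.55 ± 0.12, a share near that of all genes.

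In KO Th0, of 12 tested regulators of HIF, 5 were higher and 3 were lower, with the co-activator Crebbp at 0.51 ± 0.07 and Eloc, a subunit of the ligase that degrades HIF, at -0.62 ± 0.14. Of 15 upstream regulators of T cell glycolysis, 4 were higher and 5 were lower, against 16.8% of all genes higher and 19.6% lower. The amino acid transporter Slc7a5 differed by -1.85 ± 0.23, the MYC antagonist Mxd4 by 0.83 ± 0.11 and the mTORC1 activator Rheb by -0.65 ± 0.13. Myc itself read 10.00, 10.37 and 10.24 in KO Th0 and 10.78, 10.74 and 10.76 in WT Th0 (-0.56 ± 0.20, adjusted p = 0.033).

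Within groups, single samples were lowest for many members at once. In KO Th17, sample 2 was the lowest of the 3 for 30 of 33 members, against 42% of all genes, and in KO Th1, sample 1 for 24, against 35.5%. In WT Th17, sample 1 was lowest for 23, against 36%, and in WT Th0, sample 2 for 22, against 33.9%. The mean over all members spanned 10.0 to 10.3 in KO Th17 and 10.1 to 10.3 in WT Th17, and 8.32 to 8.41 in KO Treg and 8.27 to 8.35 in WT Treg.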

How the data were processed

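RNA of each sample was hybridised to an Affymetrix array on a GeneTitan device, per the labels. The deposited values are log2 intensities per probe set, made by the authors with R 3.1.0, oligo and RMA (background correction, quantile normalization and probe summary), per the submitters' processing notes. Depth does not apply to arrays, and the 3 samples per group limit the precision.

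A gene took its brightest probe set with exactly 1 annotated symbol. Of 41345 probe sets, 23521 had 1 symbol, 1814 several and 16010 none. Genes above the table median (5.26) in at least 3 samples were tested with limma 3.58.1 (R 4.3.3): 12 group means over all 36 samples, moderated two-sided tests with Benjamini-Hochberg adjustment over the 13082 genes, called at an adjusted p under 0.05. Errors of differences are the SE of that fit. The members and the further gene lists were chosen with earlier results of these data known. Sample values were given for the members with the largest called changes (up to 6 for genotype in a condition or for stimulation, up to 4 per polarizing condition). They were also given for some further genes outside this rule, called or not, such as Hif1a in Th0 and Slc16a3 in Th17 and Treg. The remaining members were given as folds or counts.

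Samples with the same replicate number deviated together for all 3 numbers (r over 0.1) between WT Th1 and Th0, WT Th2 and Th0, WT Th17 and Treg, KO Th1 and Th0, and KO Treg and Th0, where the numbers were taken to pair the samples, but between no KO group and its WT counterpart. The alternatives were other filters, scalings, probe set rules, variance priors and sets of samples, the replicate number as a block, a term for sex, and each sample left out. The fit was tried on simulated data for KO against WT Th0 with 200 of 13082 genes changed. It recovered 32 of 67 changes of 0.5, 65 of 67 of 1 and 66 of 66 of 2 (log2). There were 3 false calls among the 12882 unchanged genes. The measured samples gave 4765 calls in this comparison, so the simulated counts hold for the simulated setting only. False calls among the measured genes were not estimated. What deviations shared by many genes of a sample, as in KO Th0 sample 1, would change was not tested.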

Additional observations from a re-analysis of the deposited data

Results flagged for a closer look

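The effect of losing TRIM28 differed between conditions by a test of the difference itself (limma, adjusted over all genes). Between Th0 and naive cells it differed for 20 members, and the largest differences were -1.68 for Slc16a3, -1.67 for Tpi1, -1.51 for Hk2 and -1.49 for Pgam1 (-0.91 with its probe sets averaged; log2, effect in Th0 minus effect in naive cells). Between Th1 and Th0 it differed for 1 member, Mxi1, by -1.10. Between Th2 and Th0 it differed for 11 members, with -1.71 for Slc2a3, 1.32 for Pgk1, -1.27 for Pdk1 (-0.82 with its probe sets averaged) and 1.25 for Aldoc. Between Th17 and Th0 it differed for 18 members, with 1.79 for Slc16a3, 1.51 for Slc16a1, 1.49 for Pgk1 and 1.49 for Aldoc. Between Treg and Th0 it differed for 22 members, with 3.1 for Vegfa, 1.76 for Tpi1, 1.63 for Pgam1 (0.98 with its probe sets averaged) and 1.62 for Hk2. The KO and WT Th0 samples enter all of these differences. The loss of Trim28 itself was unequal, at -1.98 in naive cells, -3.83 in Th0 and -3.08 in Treg, and its part was not tested.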

How the results depend on the processing

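Of 311 member calls over 18 comparisons, 252 held under every alternative and none changed direction. The count for KO against WT Th17 (2) was 1 with the stricter filter and 1 with median centering, that for KO against WT naive cells (1) was 0 after a further quantile normalization and 0 with only the groups compared, and that for the KO effect in Th1 minus Th0 (1) was 0 with only the groups compared and 2 with the replicate block. The replicate block kept 310 of the 311 calls, losing Bhlhe40 in KO Th1, and so lost no call in the comparisons whose numbers pair the samples. That block gives KO and WT samples the same replicate effect, so it cannot fit a pairing that holds within a genotype only. The main tests used no pairing, and what a pairing within each genotype would change was not tested. With 1 sample left out, the counts for KO against WT ran over 0 to 1 in naive cells, 22 to 24 in Th0, 23 to 28 in Th1, 9 to 15 in Th2, 0 to 2 in Th17 and 1 to 3 in Treg. The lowest in Th2, 9, came without WT Th2 sample 2, and the 3 in Treg without WT Treg sample 1 or KO Treg sample 3. The count in Th17 was 0 without KO Th17 sample 1 or WT Th17 sample 3 and 1 without KO Th17 sample 2 or 3 or WT Th17 sample 1, and that in naive cells was 0 without any sample other than KO naive 2. For Th0 against naive cells the counts were 12 to 16 in KO and 25 to 26 in WT. Within WT they were 11 to 14 for Th1, 27 to 30 for Th2, 27 to 28 for Th17 and 23 to 26 for Treg against Th0, and 30 to 31 for Th17 against Treg. For the KO effect they were 17 to 20 in Th0 minus naive, and minus Th0 they were 0 to 1 in Th1, 9 to 12 in Th2, 17 to 20 in Th17 and 18 to 22 in Treg. Quantile normalization moved the median of all genes by up to 0.11 and centering by up to 0.08.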
